A study of Mus musculus with 15 samples.

Results

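The 10 transcription factor genes described here maintain or mark the pluripotent state of mouse embryonic stem (ES) cells and were measured under 5 treatments. They are Pou5f1, Sox2, Nanog, Klf4, Klf2, Esrrb, Tbx3, Tfcp2l1, Zfp42 and Prdm14, grouped as core and naive pluripotency factors. They make 10 of the 23284 genes of the count table, and the set was chosen with earlier results of these data known. All 10 passed the filter on low counts and were tested among 14696 genes. The cells were of the E14Tg2A line, called E14, and were grown in medium with fetal bovine serum and the cytokine LIF. Cells were nucleofected with 5 nmol of a Lissamine-labelled antisense oligonucleotide (ASO), either the control called RC or one directed at LINE1, an abundant family of mobile elements. After 7 h all cells also received an siRNA, 100 pmol per well, and RNA was taken on day 2 from unsorted cells, so the libraries hold cells whether or not they took up either reagent. The groups of 3 libraries were RC ASO with a control siRNA (RC control), RC ASO with an siRNA against Dux (RC siDux), RC ASO with an siRNA against Ncl (RC siNcl), LINE1 ASO with the control siRNA (LINE1 control) and LINE1 ASO with the siRNA against Dux (LINE1 siDux). No group lacked an ASO or an siRNA. Whether replicates were separate cultures is not stated in the labels, and the p-values therefore measure only the spread between these libraries, which may be technical.

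Oct4 (the product of Pou5f1) and Sox2 bind DNA side by side at joined octamer and Sox sites and, with Nanog, occupy the regulatory regions of each other and of many genes active in ES cells. In mouse ES cells held by LIF, a second tier of factors (Klf4, Klf2, Esrrb, Tbx3, Tfcp2l1 and Prdm14) keeps the naive state, the state of the inner cell mass before implantation. LIF acts through Stat3, which raises Klf4 and Tfcp2l1. Zfp42, also called Rex1, is a widely used marker of naive cells and lies downstream of the core factors.

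The octamer letters ATGCAAA, the core of the sequence that Oct4 recognises, or their reverse complement TTTGCAT, were searched in the 250 bases before the annotated starts. Of the 10 genes, 8 matched the RefSeq promoter table (build GRCm38.p6), and Tbx3 and Prdm14 did not. The letters lay before a start of 3 of those 8 genes, Sox2, Nanog and Zfp42, and before 4.12% of the 32851 starts in that table. The 8 genes have 11 starts there, so here and below their numbers are per gene and the shares per start. These 3 windows are shown because they hold letters of the site bound by Oct4, and each ends at the base before the start. Capitals mark the octamer letters, and in Nanog the whole composite of octamer and Sox letters.
Sox2, chr3:34649745-34649994, plus strand: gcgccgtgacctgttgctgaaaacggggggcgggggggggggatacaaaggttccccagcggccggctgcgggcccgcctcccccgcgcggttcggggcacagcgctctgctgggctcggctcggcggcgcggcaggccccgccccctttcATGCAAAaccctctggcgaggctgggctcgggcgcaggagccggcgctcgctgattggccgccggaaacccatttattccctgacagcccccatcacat
Nanog, chr6:122707239-122707488, plus strand: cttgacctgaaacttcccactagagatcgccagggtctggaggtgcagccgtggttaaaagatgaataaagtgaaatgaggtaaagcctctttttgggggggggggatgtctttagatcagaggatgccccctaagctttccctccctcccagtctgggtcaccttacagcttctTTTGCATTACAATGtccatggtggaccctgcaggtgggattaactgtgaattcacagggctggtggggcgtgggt
Zfp42, chr8:43307010-43307259, minus strand: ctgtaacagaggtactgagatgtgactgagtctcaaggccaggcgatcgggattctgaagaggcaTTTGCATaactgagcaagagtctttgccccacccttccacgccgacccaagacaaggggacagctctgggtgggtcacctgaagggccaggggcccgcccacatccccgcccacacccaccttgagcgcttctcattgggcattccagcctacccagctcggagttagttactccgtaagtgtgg
In Sox2 the letters stood at positions -99 to -93, counted from the start, as ATGCAAA. In Zfp42 they stood at -185 to -179, as TTTGCAT, within the longer octamer ATTTGCAT (the reverse complement of ATGCAAAT), which was found before 1.6% of starts. In Nanog the 14 letters TTTGCATTACAATG, at -75 to -62, fit the Sox letters CATTGT, 1 free base (N) and ATGCAAA in that order, read on the other strand, a composite that contains the octamer letters. Both strands were searched for every motif. That composite was found at 2 of the 32851 starts (0.00609%), both of them starts of Nanog. CCCACCC (or GGGTGGG), the core of the CACCC box bound by Klf proteins, was found before 5 of the 8 genes (Pou5f1, Nanog, Klf2, Esrrb and Zfp42) and before 15.8% of all starts. A match describes letters only and gives no binding in these cells.

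Gene counts came to between 9.55 M and 27.6 M reads per library and were higher with LINE1 ASO (17.4 M to 27.6 M) than with RC ASO (9.55 M to 17.4 M). RC control replicate 2 stood apart in its TMM factor (0.874, others 0.965 to 1.07) and on the first principal component, so each call of the 10 genes against RC control is also given without it. Levels are given as CPM, the reads of a gene per 1000000 reads counted to genes, after TMM scaling (which evens out differences in library composition). A gene rose or fell where its p, adjusted over all genes tested, was under 0.05 in edgeR's quasi-likelihood test. Ncl, the nucleolin gene, lay between 516 and 644 CPM in the RC siNcl libraries and between 3220 and 6200 CPM in the others. Ncl also fell in LINE1 control, to 72.7% of RC control (log2 change -0.46 ± 0.12, adjusted p = 0.0208, edgeR). In RC siDux its change of -0.38 ± 0.12 did not pass (adjusted p = 0.0589). Dux had at most 5 counts in any RC siDux library and at most 4 in any of RC control, so a difference between them was not detectable at this depth. With LINE1 ASO it had 25, 18 and 24 counts in LINE1 control and 19, 11 and 12 in LINE1 siDux, with no overlap in CPM, and the difference did not pass (log2 change -1.07 ± 0.41, unadjusted p = 0.019, adjusted p = 0.298, edgeR). Against RC control, and at these low counts, Dux rose in LINE1 control (log2 change 2.36 ± 0.57, adjusted p = 0.0128, edgeR). It also rose in RC siNcl (2.67 ± 0.58, adjusted p = 0.00225). No check of the LINE1 ASO was made here, and its direction is taken from the labels. All 14 ES cell markers (the 10 genes, Dppa5a, Utf1, Tdgf1 and Fgf4) were counted in every library. In bulk RNA, fewer cells of a type and less RNA per cell cannot be told apart.

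Pou5f1 and Zfp42 fell both in LINE1 control and in RC siNcl when these were set against RC control. With LINE1 ASO, 3 of the 10 genes fell and none rose (Pou5f1, Sox2 and Zfp42). Across all genes 9.69% fell and 9.35% rose in that comparison. With siNcl, 4 of the 10 fell and none rose (Pou5f1, Klf2, Zfp42 and Prdm14), beside 15.6% of all genes that fell and 16.7% that rose. With siDux under RC ASO, 1 of the 10 rose (Klf4) and none fell, where 6.09% of all genes rose and 4.5% fell. Under LINE1 ASO, siDux moved none of the 10 past the threshold, where 0.544% of all genes rose and 0.306% fell. These first 3 comparisons share the RC control libraries, so their calls are not independent of each other.

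Pou5f1, which encodes Oct4, was at 1129, 1567 and 1061 CPM in the RC control libraries. With LINE1 ASO it was at 712, 797 and 886 CPM in LINE1 control and at 709, 797 and 794 CPM in LINE1 siDux. The RC siNcl libraries read 835, 800.2 and 705 CPM, and the RC siDux libraries 1051, 1102 and 985 CPM. The 9 libraries of LINE1 control, LINE1 siDux and RC siNcl therefore all lay below the 6 of RC control and RC siDux. The group means were 1252 ± 275 CPM (SD, n = 3) in RC control, 1046 ± 58.8 in RC siDux, 798 ± 87.1 in LINE1 control, 780.2 ± 67.3 in RC siNcl and 767 ± 50.2 in LINE1 siDux. The last 3 overlap one another, as do the first 2, and the gap between them is the only break in the order. In LINE1 control, Pou5f1 fell to 63.8% of its RC control level (log2 change -0.65 ± 0.13 SE, adjusted p = 0.00445, edgeR). Without RC control replicate 2 the change was -0.45 (adjusted p = 0.00685). In RC siNcl it fell to 62.3% (log2 change -0.68 ± 0.13, adjusted p = 0.000739), and to a change of -0.49 (adjusted p = 0.000812) without that library. Both calls held whichever of the 6 libraries compared was left out, but a fit to the 6 compared libraries alone ended the LINE1 call, as it did those of Sox2 and Zfp42 in that comparison.

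Sox2, the partner of Oct4 on DNA, was at 512, 658 and 533 CPM in RC control. LINE1 control libraries held 449, 476 and 488 CPM, all below RC control, and LINE1 siDux libraries 422, 433 and 406 CPM. In RC siNcl the values were 525, 553 and 489.8 CPM and in RC siDux 483, 513 and 491 CPM, both within reach of RC control. Group means of Sox2 ran from 420.2 ± 13.9 CPM in LINE1 siDux to 568 ± 78.9 CPM in RC control. Only LINE1 siDux was separated from its neighbour in the order of means. Sox2 fell by 0.27 ± 0.09 on the log2 scale in LINE1 control (adjusted p = 0.0477). The call ended when RC control replicate 2 was left out (-0.15, adjusted p = 0.151) and without any of LINE1 control replicates 1, 2 and 3 (adjusted p from 0.0509 to 0.19). The Sox2 call also ended with no filter on low counts. In RC siNcl its log2 change of -0.12 ± 0.09 did not pass (adjusted p = 0.335) and was -0.0029 without RC control replicate 2.

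Nanog, the third core factor, was among the least counted genes of the set, with 146 to 554 reads per library. It read 23.8, 13.98 and 21.6 CPM in RC control, a spread that takes in most of the other groups. RC siDux read 25.5, 23.1 and 25.8 CPM, RC siNcl 19.9, 21.6 and 25.1 CPM, LINE1 control 14.7, 18.9 and 21.1 CPM and LINE1 siDux 18.7, 20.2 and 20.2 CPM. Every group of Nanog overlaps its neighbour in the order of means, which runs from 18.2 ± 3.28 CPM in LINE1 control to 24.8 ± 1.46 CPM in RC siDux. Nanog passed in none of the 8 tests, and its log2 changes ran from -0.33 ± 0.16 (LINE1 siDux against RC siDux) to 0.32 ± 0.17 (RC siDux against RC control). The GENCODE annotation lists the pseudogenes Nanog-ps1, Nanog-ps2 and Zfp42-ps1, and since the counting of multi-mapping reads is not documented, levels of Nanog and Zfp42 carry that uncertainty.

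**Figure D1:**
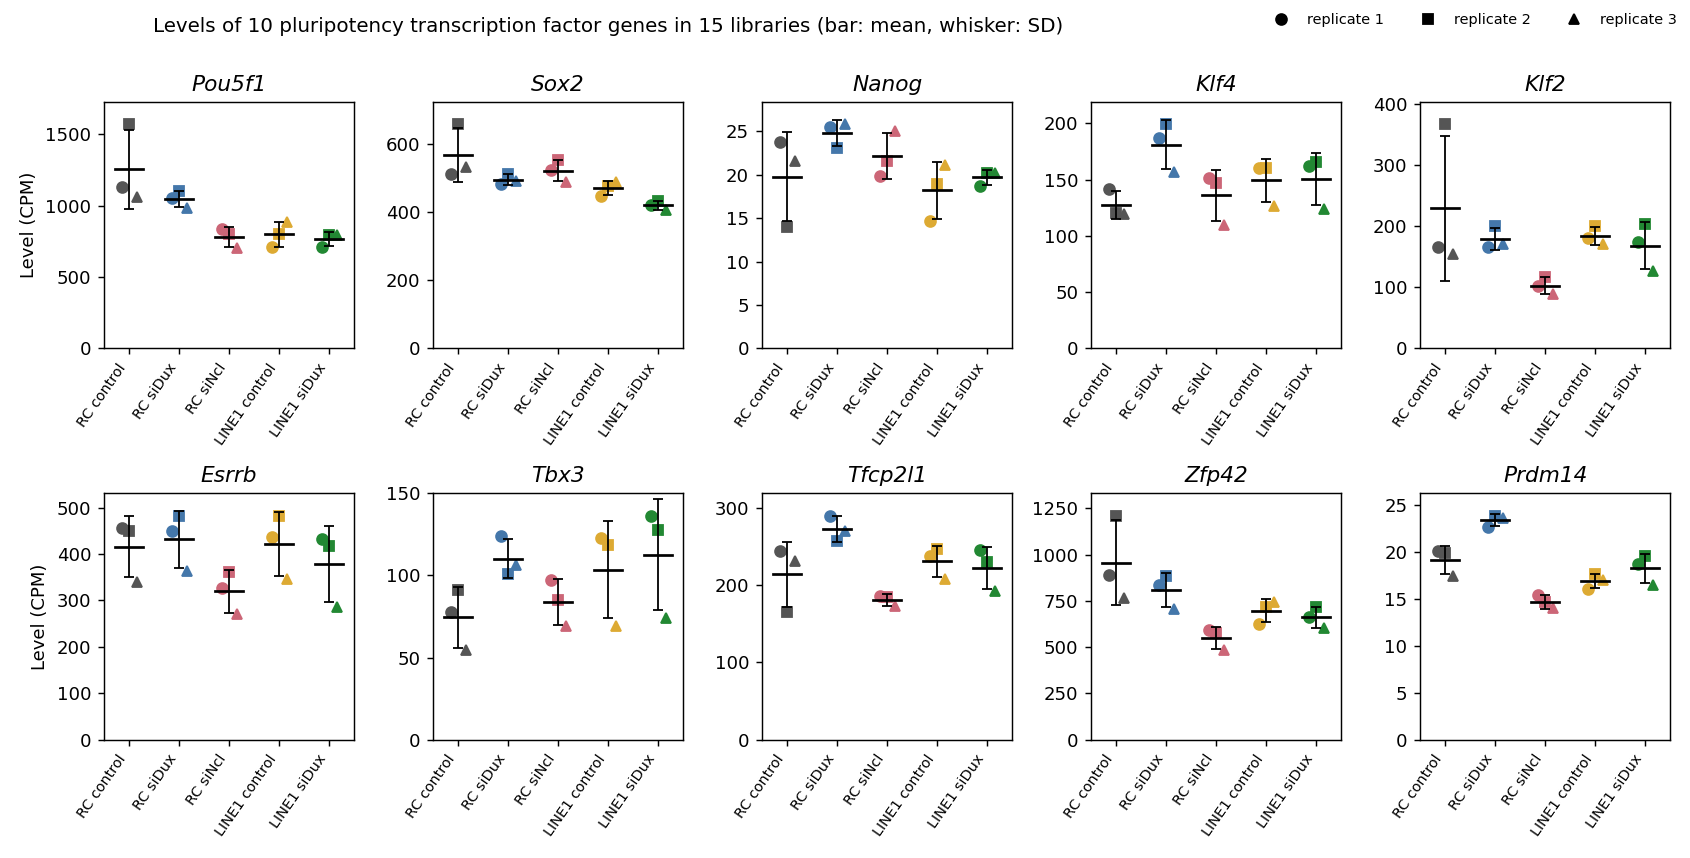
Level of each of the 10 genes in CPM (vertical axis from 0) in the 15 libraries, by group; markers show replicates 1 to 3, bars the mean and whiskers the SD of 3 libraries. Pou5f1 lies lower in LINE1 control, LINE1 siDux and RC siNcl than in every RC control and RC siDux library, and Klf2 is lowest in RC siNcl, while RC control replicate 2 holds the highest Klf2 value, 367 CPM.

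Klf2, a Krüppel-like factor of the naive state, had its lowest levels with siNcl. Its RC siNcl libraries held 102, 117 and 89.8 CPM, below each of the 12 other libraries. RC control held 166, 367 and 155 CPM, RC siDux 166, 200.3 and 171 CPM, LINE1 control 181, 200.5 and 171 CPM and LINE1 siDux 174, 204 and 127 CPM. The RC control mean of 229 ± 119 CPM was raised by replicate 2, the highest of the 15 values. Klf2 fell to 44.8% in RC siNcl (log2 change -1.16 ± 0.25, adjusted p = 0.00234), and without RC control replicate 2 the change was -0.65 (adjusted p = 0.00529). Against LINE1 control, RC siNcl was lower as well, so that Klf2 was higher in LINE1 control by 0.84 ± 0.25 (adjusted p = 0.0253). This call was lost without LINE1 control replicate 1 or 2 or RC siNcl replicate 1 or 3 (log2 change 0.76 to 0.86, adjusted p from 0.057 to 0.0914). In LINE1 control against RC control Klf2 did not pass (-0.31 ± 0.25), and the sign turned to 0.20 without RC control replicate 2.

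Klf4, a second Krüppel-like factor and a target of LIF signalling through Stat3, was highest in RC siDux at 187, 199 and 157 CPM. RC control held 142, 120.4 and 119 CPM, with no overlap between these groups. LINE1 control held 161, 160.3 and 127 CPM, LINE1 siDux 162, 165 and 124 CPM, and both overlap each of the former. RC siNcl held 151, 147 and 109 CPM, below all of RC siDux and overlapping RC control. Klf4 rose by 0.51 ± 0.14 in RC siDux (adjusted p = 0.0344). The call ended when RC control replicate 2 was left out (0.47, adjusted p = 0.084), as without its replicate 3, without RC siDux replicate 1 or 2, and in a fit to the 6 libraries alone. With the replicate number as a block the change was 0.50 (adjusted p = 0.00104). Under LINE1 ASO the difference by siDux was 0.01 ± 0.14 (adjusted p = 0.992). The interaction, which tests whether the siDux change differs between the ASOs, was -0.50 ± 0.20 (unadjusted p = 0.0255, adjusted p = 0.981) and did not pass.

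Esrrb, an orphan nuclear receptor that binds with the core factors, was at 457, 450.0 and 340.2 CPM in RC control, against 449, 481 and 363 in RC siDux and 435, 483 and 346 CPM in LINE1 control. LINE1 siDux held 432, 418 and 285 CPM and RC siNcl 327, 361 and 270.2 CPM. Replicate 3 was the lowest library in each of the 5 groups, and neighbouring groups all overlap. Esrrb passed in none of the 8 tests. In RC siNcl it differed by -0.38 ± 0.17 from RC control (adjusted p = 0.0989) and by -0.43 ± 0.17 from RC siDux (adjusted p = 0.0953). The first was -0.32 (adjusted p = 0.22) without RC control replicate 2 and passed without its replicate 3 (-0.51, adjusted p = 0.0373). In the second it was lower when the replicate number was used as a block (-0.43, adjusted p = 0.000755). LINE1 control was 0.40 ± 0.17 above RC siNcl, which did not pass (adjusted p = 0.108).

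Tfcp2l1, a target of LIF and Stat3 that maintains naive cells, was lowest in RC siNcl at 186, 184 and 172 CPM and highest in RC siDux at 289.6, 257 and 270.0 CPM. RC control held 244, 165 and 231 CPM, LINE1 control 237, 247 and 207 CPM and LINE1 siDux 245, 229 and 192 CPM. RC siDux did not overlap any other group. Tfcp2l1 was 0.59 ± 0.13 lower in RC siNcl than in RC siDux (adjusted p = 0.00416), a call that held whichever of those 6 libraries was left out. Against RC control its changes of -0.24 ± 0.13 in RC siNcl (adjusted p = 0.153) and 0.35 ± 0.13 in RC siDux (adjusted p = 0.0852) did not pass. Without RC control replicate 2 the first was -0.40 (adjusted p = 0.00708) and the second 0.20 (adjusted p = 0.264). The second passed without RC control replicate 1 (0.46, adjusted p = 0.0416) and with the replicate block (0.35, adjusted p = 0.0469).

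Prdm14, which keeps naive cells from FGF signalling and from DNA methylation, was also counted thinly, with 145 to 552 reads per library. It was at 15.4, 14.7 and 13.96 CPM in RC siNcl, below each of the 12 other libraries, and at 22.6, 23.8 and 23.6 CPM in RC siDux, above each of them. RC control held 20.1, 19.8 and 17.4 CPM, LINE1 control 16.04, 17.6 and 17.0 CPM and LINE1 siDux 18.7, 19.5 and 16.5 CPM. Prdm14 fell to 76.9% of RC control in RC siNcl (log2 change -0.38 ± 0.11, adjusted p = 0.0143). The change was -0.35 (adjusted p = 0.0318) without RC control replicate 2, and the call was lost without RC siNcl replicate 3 (-0.34, adjusted p = 0.0689) and in a fit to the compared libraries alone. In RC siDux against RC control its change of 0.29 ± 0.11 did not pass (adjusted p = 0.0857), and with the replicate block it did (0.30, adjusted p = 0.0495). Between RC siNcl and RC siDux the difference was -0.67 ± 0.11 (adjusted p = 0.000462) and held in every fit that left out 1 library.

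Tbx3, a T-box factor that acts in the LIF response, varied within groups, by up to 29.8% (coefficient of variation, LINE1 siDux). It was at 77.8, 91.3 and 54.4 CPM in RC control, against 124, 100.7 and 106 in RC siDux and 97.1, 84.9 and 69.1 CPM in RC siNcl. LINE1 control held 123, 119 and 69.4 CPM and LINE1 siDux 136, 127 and 74.3 CPM, so replicate 3 was well below the others in both. Tbx3 passed in none of the 8 tests. All RC siDux libraries lay above all RC control libraries (log2 change 0.57 ± 0.24, adjusted p = 0.134), and with the replicate block the difference passed (0.61, adjusted p = 0.00877). Without RC control replicate 2 it was 0.75 (adjusted p = 0.0951).

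Zfp42, the Rex1 gene downstream of the core factors, was at 889.5, 1211 and 768 CPM in RC control and at 836, 884 and 705 CPM in RC siDux. LINE1 control held 627, 718 and 744 CPM, LINE1 siDux 663, 716 and 604 CPM and RC siNcl 590.2, 578 and 482 CPM. The RC siNcl libraries were the lowest 3 of the 15. Zfp42 fell to 57.5% in RC siNcl (log2 change -0.80 ± 0.14, adjusted p = 0.00051), and without RC control replicate 2 the change was -0.59 (adjusted p = 0.000947). In LINE1 control it fell to 72.8% (log2 change -0.46 ± 0.14, adjusted p = 0.0357). That call was lost without RC control replicate 2 (-0.25, adjusted p = 0.152) and without LINE1 control replicate 1 or 2 (-0.37 and -0.47, adjusted p = 0.165 and 0.0881). LINE1 control and RC siNcl did not overlap for Zfp42, but their difference of 0.34 ± 0.14 did not pass (adjusted p = 0.103).

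**Figure D2:**
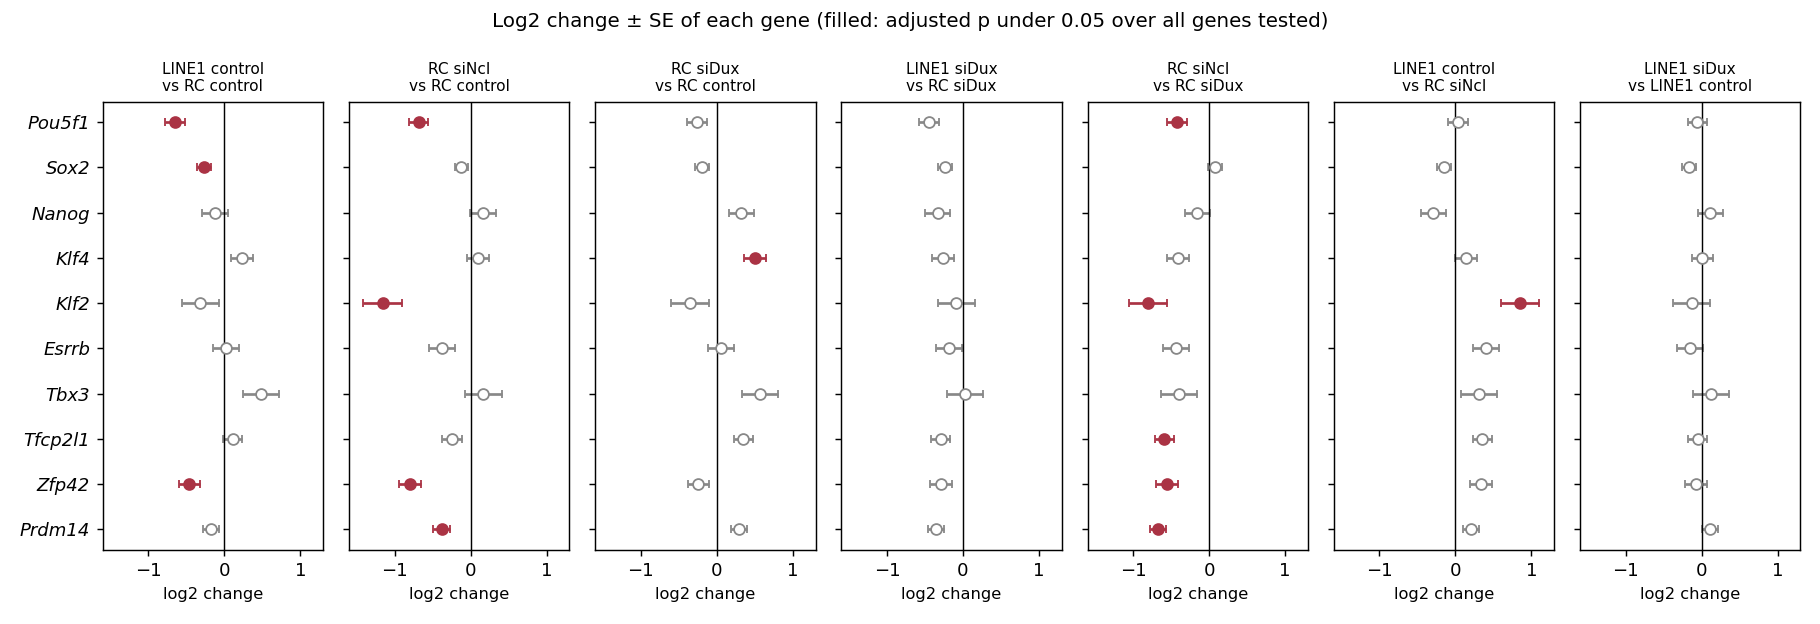
Log2 change of each gene with its SE (horizontal axis) in 7 comparisons; filled points passed an adjusted p of 0.05 over all 14696 genes. Filled points to the left are Pou5f1, Sox2 and Zfp42 for LINE1 control against RC control, and Pou5f1, Klf2, Zfp42 and Prdm14 for RC siNcl against RC control.

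The remaining contrasts place the treated groups against each other. RC siNcl against RC siDux, both under RC ASO, had 5 of the 10 genes lower (Pou5f1, Klf2, Tfcp2l1, Zfp42 and Prdm14) and none higher, beside 7.1% of all genes lower and 9.53% higher. Pou5f1 differed by -0.42 ± 0.13 (adjusted p = 0.0314), Klf2 by -0.80 ± 0.25 (adjusted p = 0.0365) and Zfp42 by -0.56 ± 0.14 (adjusted p = 0.0134). The Klf2 call was lost with DESeq2 and whichever of the 6 libraries was left out (-0.91 to -0.72, adjusted p from 0.0525 to 0.133). That of Pou5f1 was lost without RC siDux replicate 1 or 2 or RC siNcl replicate 2 or 3, and that of Zfp42 without RC siDux replicate 2 or RC siNcl replicate 3. In 8 of the 10 genes every RC siNcl library lay below every RC siDux library, the exceptions being Sox2 and Nanog, where 19.9% of all genes did so. With the replicate number as a block 8 genes passed as lower, adding Klf4 (-0.42, adjusted p = 0.00202), Esrrb and Tbx3 (-0.42, adjusted p = 0.0388). The block also gave more genes lower among all 14696, 1459 in place of 1044.

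LINE1 siDux against RC siDux repeats the ASO comparison under siDux. None of the 10 genes passed in either direction, beside 0.749% of all genes lower and 2.31% higher. Of the 10 log2 changes 9 were negative, with Tbx3 at 0.03 ± 0.24 as the exception. Of the 10 genes 5 (Pou5f1, Sox2, Nanog, Tfcp2l1 and Prdm14) were lower in every LINE1 siDux library than in every RC siDux library, as were 15.9% of all genes. The Pou5f1 change was -0.45 ± 0.13 (adjusted p = 0.0632) and that of Prdm14 -0.36 ± 0.10 (adjusted p = 0.0667). At an unadjusted p under 0.05 edgeR counted 4 of the 10 genes here and 2941 of all 14696. DESeq2 called 2 of the 10 lower, and 329 of all genes. Under LINE1 ASO, siDux against the control siRNA gave log2 changes from -0.16 (Sox2) to 0.12 (Tbx3), with adjusted p of at least 0.509. No gene of the set had an unadjusted p under 0.05 in that comparison, and DESeq2 and the replicate block also called none. No gene of the set, and none of the 14696 genes, passed the interaction of ASO and siDux in edgeR, where 2 of the 10 had an unadjusted p under 0.05 (Klf4 and Tfcp2l1), as did 491 of all genes. DESeq2 called 1 gene higher and 9 lower in it, none of them of the set.

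LINE1 control set directly against RC siNcl had 1 of the 10 genes higher (Klf2) and none lower, where 9.45% of all genes were higher and 10.4% lower. Pou5f1 differed by 0.03 ± 0.13 (adjusted p = 0.887) between these groups. Across the comparisons the median log2 change of the 10 genes was -0.15 for LINE1 control against RC control, -0.31 for RC siNcl against RC control, 0.17 for RC siDux against RC control and -0.06 for LINE1 siDux against LINE1 control. It was -0.28 for LINE1 siDux against RC siDux, -0.43 for RC siNcl against RC siDux and 0.26 for LINE1 control against RC siNcl. The median over all genes tested stayed between -0.01 and 0.02 in the same 7 comparisons.

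**Figure D3:**
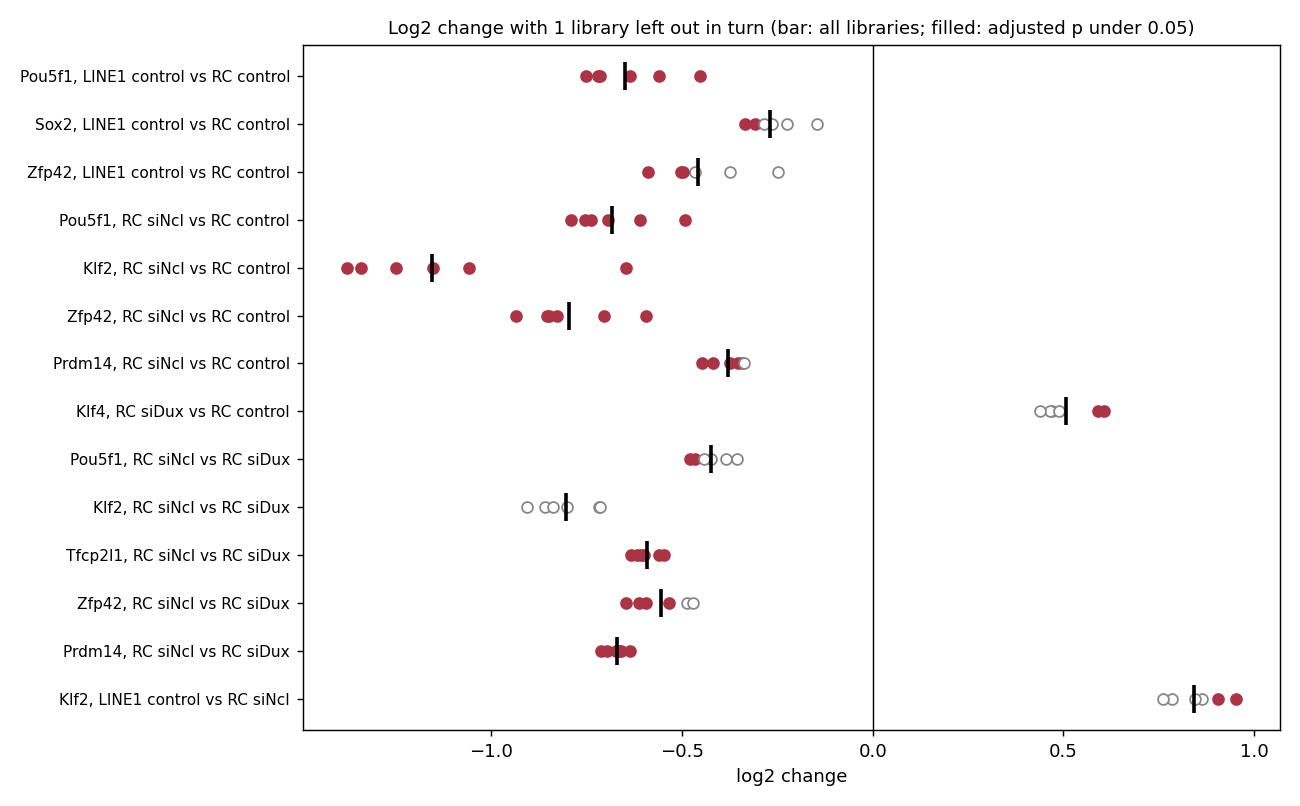
Log2 change (horizontal axis) of the 14 changes that passed, refitted with each compared library left out in turn; the bar is the fit to all 15 libraries and filled points kept an adjusted p under 0.05. Pou5f1 against RC control kept the call in all 6 refits with LINE1 ASO and all 6 with siNcl, whereas Klf2 in RC siNcl against RC siDux lost it in all 6.

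Scaling to the ERCC spike-ins instead of TMM ended each of the 14 calls. Within RC control alone, ERCC reads ran from 0.303% to 0.647% of the gene counts. That scaling put the median log2 change of all genes at 0.22 for LINE1 control, 0.03 for RC siNcl and 0.31 for RC siDux, each against RC control, at -0.27 for RC siNcl against RC siDux and at 0.16 for LINE1 control against RC siNcl. Relative to that median, Pou5f1 was at -0.65, Sox2 at -0.26 and Zfp42 at -0.46 in LINE1 control. In RC siNcl, Pou5f1 was at -0.61, Klf2 at -1.004, Zfp42 at -0.73 and Prdm14 at -0.37 relative to it. Subtracting the median takes out most of the shift between scalings. These values therefore largely return the TMM changes and are no separate check of them.

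Among themselves the 10 genes did not vary as 1 block. Over the 15 libraries, which share treatment groups and differ in depth, Pearson's r in log2 CPM was above 0 for 34 of 45 pairs, with a median of 0.346. Pou5f1 and Zfp42 were the most alike (r = 0.900), and Klf2 and Zfp42 followed closely (r = 0.861). Nanog and Klf2 were the least alike (r = -0.531). Replicate 3 was the lowest library of its group in 5 of 5 groups for Klf4 and Esrrb and in 4 of 5 for Klf2, Tbx3 and Zfp42. Among 10634 well-counted genes, Psmd3, a proteasome subunit gene, had the pattern most like Pou5f1 (r = 0.987), followed by Tcea3 (0.9799) and Bms1 (0.979). Klf4 was most like Jam2 (0.917), Rbpj (0.872) and Mks1 (0.857), and Nanog most like Etv5 (0.932), BC018507 (0.921) and Gsk3a (0.919).

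The wider network was read from a list of 26 other genes around these factors, all of them tested. In LINE1 control against RC control 6 of the 26 fell and none rose, with a list median of -0.09, where 9.69% of all genes fell and 9.35% rose. The cofactor gene Utf1 fell by 0.70 ± 0.14 (adjusted p = 0.00558), Gbx2, a homeobox gene, by 1.14 ± 0.33, Dppa5a by 1.06 ± 0.32 and Fgf4, the growth factor gene under joint control of Oct4 and Sox2, by 0.53 ± 0.17 on the log2 scale. The number that fell was 10 with the replicate block, beside 1957 of all genes in place of 1424. It was 0 with ERCC scaling and 0 in a fit to the compared groups only. It was 2 without RC control replicate 2 and 1 without LINE1 control replicate 1 or 2, and 1 rose without RC control replicate 1 and 2 without LINE1 control replicate 3. In RC siNcl against RC control 10 of the 26 fell and 4 rose (median -0.25), where 15.6% of all genes fell and 16.7% rose. Tfap2c, an AP-2 factor gene, rose by 1.08 ± 0.14, and the Nodal antagonist genes Lefty2 and Lefty1 rose by 1.06 ± 0.14 and 0.92 ± 0.13. Lin28a, which encodes an inhibitor of let-7 maturation, fell by 0.63 ± 0.09 (adjusted p = 8.99e-05). Without RC siNcl replicate 3 the number that fell was 6.

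In RC siDux against RC control 3 of the 26 fell and 2 rose (median 0.0054), where 4.5% of all genes fell and 6.09% rose. Lin28a fell by 0.50 ± 0.09 and Dppa3, a maternal-effect gene also called Stella, by 1.28 ± 0.32 (adjusted p = 0.019). Lefty1 rose by 0.42 ± 0.13. The count of falls was 1 without RC control replicate 2 or RC siDux replicate 1 or 3, and no gene rose without either of the latter. In LINE1 siDux against RC siDux, 1 of the 26 was lower (Gbx2, -1.29 ± 0.33, adjusted p = 0.0418) and none higher (median -0.19). The Gbx2 call was lost without RC siDux or LINE1 siDux replicate 1 or 2. Of all genes 0.749% were lower and 2.31% higher. RC siNcl against RC siDux had 5 lower and 4 higher (median -0.11), beside 7.1% of all genes lower and 9.53% higher. Among the network genes that passed were Tfap2c (0.94 ± 0.14), Lefty2 (0.78 ± 0.14), Klf5 (-0.69 ± 0.15) and Fgf4 (-0.74 ± 0.17). The counts were 4 lower and 2 higher without RC siDux replicate 1 or 2, 3 and 2 without RC siNcl replicate 3, and 9 and 5 with the replicate block. LINE1 control against RC siNcl had 6 higher and 5 lower (median 0.06), where 9.45% of all genes were higher and 10.4% lower. Nr0b1, an orphan nuclear receptor gene, was higher by 1.39 ± 0.29 and Tfap2c lower by 0.98 ± 0.14. None of the 26 passed for LINE1 siDux against LINE1 control in edgeR (median -0.07), and 1 fell with DESeq2 and 1 with the replicate block.

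**Figure D4:**
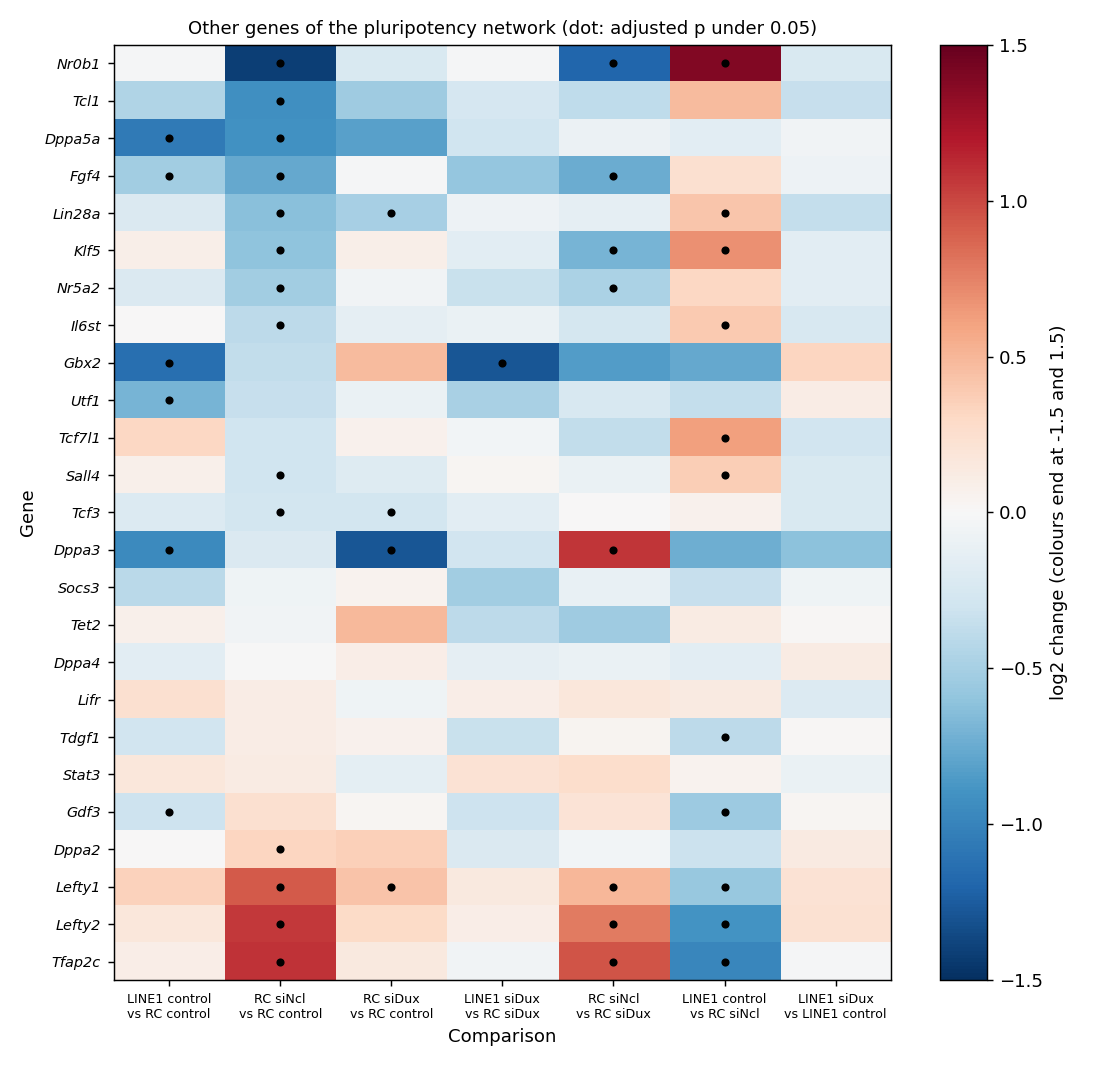
Log2 change (colour, red higher and blue lower) of genes of the network list in 7 comparisons; dots mark an adjusted p under 0.05. Tfap2c, Lefty1 and Lefty2 are higher in RC siNcl than in RC control, RC siDux and LINE1 control, and the column for LINE1 siDux against LINE1 control holds no dot.

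Genes of the primed state, the later state that follows implantation, gave no common direction. Of 17 such genes 16 were tested. In LINE1 control against RC control 1 of the 16 fell, where 9.69% of all genes did. This was Lef1, a factor of the Wnt pathway (-0.96 ± 0.21, adjusted p = 0.00848). The count of falls was 3 without RC control replicate 2, 4 without LINE1 control replicate 3 and 0 without LINE1 control replicate 1. In RC siNcl against RC control 4 fell and 1 rose, where 15.6% of all genes fell and 16.7% rose. The DNA methyltransferase gene Dnmt3b fell by 0.88 ± 0.19 and Zic2 by 0.82 ± 0.17, while Nodal, the TGF-beta family ligand, rose by 0.90 ± 0.15. In RC siDux against RC control 2 fell (Pim2, -1.23 ± 0.31, and Zic2, -0.61 ± 0.17) and Nodal rose by 0.61 ± 0.15, where 4.5% of all genes fell and 6.09% rose. None fell without RC control replicate 3 or RC siDux replicate 1 or 2, 4 fell without RC control replicate 2 and 5 with the replicate block, and none rose without RC siDux replicate 3. The list medians in these 3 comparisons were -0.19, -0.0045 and -0.28. RC siNcl against RC siDux had 2 higher, Otx2 (0.92 ± 0.18) and Dnmt3a (0.47 ± 0.16), beside 9.53% of all genes. It had 4 higher with the replicate block, beside 1865 of all genes. It had 1 without RC siDux replicate 1 or 2 or any RC siNcl library. LINE1 control against RC siNcl had 3 higher and 2 lower, beside 9.45% and 10.4% of all genes, or 2 and 1 without LINE1 control replicate 1 or 2 or RC siNcl replicate 1 or 3. None of the 16 passed in the other comparisons in the reported edgeR fit, but 3 fell in LINE1 siDux against LINE1 control with the replicate block. In LINE1 siDux against RC siDux 1 was lower with the block and 1 in the compared groups only. In that comparison 1 was higher with DESeq2 and 1 without LINE1 siDux replicate 3. With ERCC scaling no primed gene passed in any comparison, and of the 26 network genes 1 was lower in LINE1 siDux against RC siDux and 1 higher in LINE1 control against RC siNcl, with none passing elsewhere.

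Markers of other cell types were read beside these changes. The 11 markers of 2-cell-like cells, a rare state of ES cells that transcribes genes of the 2-cell embryo, summed to between 16.6 and 21.7 CPM in the RC control libraries, 3.09 and 5.18 with siDux under RC ASO, 73.5 and 132 CPM in RC siNcl, 115 and 144 CPM in LINE1 control and 33.8 and 44.7 CPM in LINE1 siDux. Of the 10 tested, 9 rose in LINE1 control and 9 in RC siNcl against RC control, beside 9.35% and 16.7% of all genes. In RC siDux 6 of the 10 fell, beside 4.5% of all genes. Dub2a was at 0 in all 15 libraries. The LINE1 siDux sums lay between those of RC control and LINE1 control. The 8 primitive endoderm markers summed to between 11.6 and 23.0 CPM in RC control and reached 24.2 to 34.6 CPM in LINE1 control, 28.4 to 34.8 in RC siNcl, 22.2 to 28.5 in RC siDux and 32.8 to 42.6 in LINE1 siDux. Of these 8, 2 rose in LINE1 control, 4 in RC siNcl and 1 in RC siDux, beside 9.35%, 16.7% and 6.09% of all genes. Foxa2 was at 0 in 1 library. The 10 fibroblast markers stayed between 49.5 and 73.4 CPM in every library, with Fap at 0 in 14 of 15. Trophoblast markers summed to between 154 and 368 CPM per library, neuroectoderm markers to between 126 and 216 and mesoderm markers to between 4.31 and 27.2, with ranges that overlap between all groups. Against RC control, 1 trophoblast marker rose in RC siDux, 2 neuroectoderm markers rose in RC siNcl and 1 mesoderm marker rose in each of the 3 groups. The tested markers numbered 7, 6 and 4 in these lists, and the shares of all genes that rose are those given above. The part of these markers, of library depth and of the spread of RC control replicate 2 in the changes of the 10 genes was not tested beyond the fits that left it out.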

How the data were processed

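The deposited values used here are counts of reads per gene in 1 table. Its 92 ERCC spike-in rows entered neither library sizes nor tests. The authors' values are not normalized. The submitters' processing notes name Trim Galore 0.4.0, TopHat2 2.0.9, the build mm9, R 3.3.0 and DESeq2 1.12.3. The deposited sheet is named for featureCounts. Libraries were made with a strand-marking kit, per the labels' protocols. The treatment of reads with several matches and the strand setting of the counting are not given in the sources used here. The count table of repeats was not used here.

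CPM was computed with edgeR from each library's gene reads and its TMM factor. Tests used edgeR 4.0.16 (quasi-likelihood, filterByExpr by group, TMM, 1 term per group, all 15 libraries, 10 residual degrees of freedom) in R 4.3.3, with p-values adjusted by Benjamini-Hochberg over the 14696 genes tested and a threshold of 0.05. The SE of a log2 change is its size over the root of the F statistic. The 8 comparisons share groups, as named beside them. The fit was tested on simulated data. Replicates differed by more than sampling noise (chi-square per degree of freedom 2.96 to 47.8), so none was a copy of another.

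The members and lists were chosen with earlier results of these data known. Named were the 10 genes, Ncl and Dux, up to 4 genes per list and comparison with the smallest p, and the 3 genes most like Pou5f1, Klf4 and Nanog (Pearson's r of log2 CPM with 0.5 added, among genes with a mean of at least 5 CPM). Lists held 26 network genes (1 of them is counted but not reported here by name or drawn), 17 primed genes and markers of 2-cell-like cells, fibroblasts, primitive endoderm, trophoblast, neuroectoderm and mesoderm. Genes whose exons overlap those of the 10 in GENCODE are Gm19553 (Pou5f1, other strand), Tbx3os1 (Tbx3, other strand) and Gm23497 (Tfcp2l1, same strand). None of these is in the count table, and shared reads were not examined.

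Alternatives were RLE scaling, no filter, DESeq2 1.42.0, the replicate number as a block, scaling to ERCC counts, a fit to the compared groups only and each library left out in turn. Deviations from group means correlated by over 0.1 between all same-numbered libraries for RC siDux against RC control (0.223 to 0.316), LINE1 siDux against LINE1 control (0.364 to 0.653) and RC siNcl against RC siDux (0.232 to 0.441), so the block is given beside the results it changed in those comparisons. The other comparisons had positive values too, the lowest between 0.0413 and 0.0977. Missing the cut of 0.1 therefore does not show their libraries to be unpaired. The labels do not say what a number marks. Promoter windows come from RefSeq (GRCm38.p6), a different build from that of the counts.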

Additional observations from a re-analysis of the deposited data

How the results depend on the processing

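Over the 80 results of the 10 genes in 8 comparisons, direction and side of the threshold were kept in 80 with RLE scaling, 78 with no filter, 75 with DESeq2, 66 with the replicate block, 68 in a fit to the compared groups only and 54 with ERCC scaling, and in 472 of 540 fits that left out 1 library. The sign turned in 46 of these refits, and in none of the 46 did the change pass the test as reported or in the refit (lowest adjusted p as reported 0.174). The cause was not tested. Nanog and Prdm14 had the fewest reads of the 10 genes, and Dux at most 30 counts.

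For LINE1 control against RC control the 3 genes lower became 0 with ERCC scaling, 0 in the compared groups only and 1 to 3 with 1 library left out, and the 0 higher became 1 with the replicate block and 0 to 1 with 1 library left out. With that block 1950 of all genes were higher, in place of 1374. For RC siNcl against RC control the 4 lower became 0 with ERCC scaling. For RC siDux against RC control the 1 higher became 4 with the block, 0 with ERCC scaling, 0 in the compared groups only and 0 to 2 with 1 library left out. For LINE1 siDux against RC siDux the 0 lower became 1 with no filter, 2 with DESeq2, 2 with the block and 1 in the compared groups only. For RC siNcl against RC siDux the 5 lower became 8 with the block, 0 with ERCC scaling, 8 in the compared groups only and 2 to 5 with 1 library left out. For LINE1 control against RC siNcl the 1 higher became 2 with DESeq2, 4 with the block, 0 with ERCC scaling, 4 in the compared groups only and 0 to 3 with 1 library left out. Same-numbered libraries correlated positively in all comparisons, by over 0.1 throughout in 3 of them. With the block Esrrb also passed as lower in RC siNcl against RC control (-0.38, adjusted p = 0.00112). The block changed no call of the 10 genes beyond these and those in the report. Besides the calls gained that the report gives, Tbx3 passed in LINE1 control against RC control (0.71, adjusted p = 0.036), and Esrrb (0.53, adjusted p = 0.043) and Tfcp2l1 (0.43, adjusted p = 0.0361) in LINE1 control against RC siNcl, each without LINE1 control replicate 3, and Klf4 in RC siNcl against RC siDux without RC siDux replicate 3 (-0.51, adjusted p = 0.0435).

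With ERCC scaling these log2 changes turned sign: Klf2 to 0.027 in LINE1 control against RC control, Pou5f1 to 0.11, Sox2 to 0.15, Klf2 to 0.094 and Zfp42 to 0.13 in RC siDux against RC control, Klf4 to -0.091 in LINE1 siDux against LINE1 control, Tbx3 to -0.16 in LINE1 siDux against RC siDux (and to -0.026 with the replicate block), and Sox2 to -0.19 in RC siNcl against RC siDux. In the interaction Pou5f1 turned to -0.27, Sox2 to -0.42, Klf2 to -0.30 and Zfp42 to -0.29. Relative to the median of all genes under ERCC scaling, 3 of the 10 genes were higher and 7 lower in LINE1 control against RC control, and 6 and 4 in RC siDux against RC control. Subtracting that median takes out most of the shift between scalings, so these counts are no separate check.

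With 1 library left out, log2 changes crossed 0 as follows. In LINE1 control against RC control Nanog ran from -0.31 to 0.023, Klf2 from -0.53 to 0.20, Esrrb from -0.10 to 0.15 and Tfcp2l1 from -0.041 to 0.22. In RC siNcl against RC control Nanog ran from -0.023 to 0.31 and Tbx3 from -0.020 to 0.34. In RC siDux against RC control Klf2 ran from -0.57 to 0.16 and Esrrb from -0.071 to 0.17. In LINE1 siDux against LINE1 control Pou5f1 ran from -0.13 to 0.023, Nanog from -0.017 to 0.23, Klf4 from -0.093 to 0.14, Klf2 from -0.29 to 0.044, Esrrb from -0.28 to 0.018, Tbx3 from -0.095 to 0.35 and Tfcp2l1 from -0.13 to 0.047. In LINE1 siDux against RC siDux Klf2 ran from -0.24 to 0.090 and Tbx3 from -0.13 to 0.27, and in LINE1 control against RC siNcl Pou5f1 from -0.037 to 0.12. In the interaction Sox2 ran from -0.086 to 0.10, Klf2 from -0.29 to 0.45 and Zfp42 from -0.036 to 0.31.

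Counts over all genes moved by more than 1.5 times in each of the 7 comparisons of groups. ERCC scaling gave 278 higher and 2 lower in LINE1 control against RC control (1374 and 1424 as reported), 563 and 68 in RC siNcl against RC control (2461 and 2298), 187 and 10 in RC siDux against RC control (895 and 661), 62 and 51 in RC siNcl against RC siDux (1401 and 1044) and 106 and 19 in LINE1 control against RC siNcl (1389 and 1534). A fit to the compared groups only gave 364 and 32 in the first of these, 201 and 41 in RC siDux against RC control, 50 higher in LINE1 siDux against LINE1 control, 348 lower in LINE1 siDux against RC siDux, 1240 lower in RC siNcl against RC control and 1717 lower in RC siNcl against RC siDux. For RC siDux against RC control DESeq2 gave 1015 lower and the block 1126. For LINE1 siDux against LINE1 control (80 higher, 45 lower) DESeq2 gave 221 and 101, the block 305 and 141 and ERCC scaling 0 and 6, and for LINE1 siDux against RC siDux (340 and 110) they gave 564 and 329, 766 and 463, and 38 and 3.

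With 1 library left out, counts over all genes ran in LINE1 control against RC control from 473 to 1774 higher and from 113 to 1833 lower, with moves of over 1.5 times without LINE1 control replicate 1 or 2 or RC control replicate 2. In RC siNcl against RC control they ran from 1843 to 2434 and from 1487 to 2590 (RC siNcl replicate 3). In RC siDux against RC control they ran from 406 to 927 and from 154 to 1093 (RC siDux replicate 1 or 3, RC control replicate 3). In LINE1 siDux against LINE1 control they ran from 4 to 34 and from 9 to 17 (any of the 6), and in LINE1 siDux against RC siDux from 94 to 413 and from 11 to 133 (replicate 1 or 2 of either). In RC siNcl against RC siDux they ran from 822 to 1119 and from 591 to 828 (RC siDux replicate 1 or 2, RC siNcl replicate 3), and in LINE1 control against RC siNcl from 819 to 1603 and from 911 to 1610 (LINE1 control replicate 1 or 2, RC siNcl replicate 1 or 3).

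Moves in the network counts included LINE1 siDux against RC siDux, from 1 lower to 2 with no filter, 4 with DESeq2, 6 with the block and 2 in the compared groups only. For RC siDux against RC control they went from 2 higher and 3 lower to 0 and 1 in the compared groups only, in RC siNcl against RC siDux from 5 lower to 10 in the compared groups only, and in LINE1 control against RC siNcl from 5 lower to 9 with the block. Those in the primed counts included LINE1 control against RC control, from 1 lower to 4 with the block, 2 with DESeq2, 2 with no filter and 0 in the compared groups only. For RC siDux against RC control they went from 2 lower to 4 with DESeq2, 4 with no filter and 0 in the compared groups only, and in LINE1 control against RC siNcl from 2 lower to 4 with the block.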
